A study of Cicer arietinum with 5 samples.

Results

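CCG sites are places where a cytosine in CHG context stands directly before a cytosine in CG context, so that both contexts can be read side by side on the same strand. The first, or outer, C is followed by another C and a G and is therefore a CHG cytosine (H is A, C or T), whereas the second, or inner, C is the CG cytosine. A site was taken where the outer C, the inner C 1 base downstream and the opposite-strand CG partner of the inner C 2 bases downstream were all listed as methylcytosines in all 5 libraries. This gave 264702 CCG sites, 132340 on the forward and 132362 on the reverse strand, out of 14128403 cytosines listed in all 5 libraries. All 3 positions of the motif were read from listed cytosines, so the identity of a site as CCG needed no genome sequence.

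The libraries were whole genome bisulphite libraries from seeds of Himchana 1, a small-seeded chickpea (Cicer arietinum) cultivar grown in the field. Mid-maturation (S5, n = 3 libraries) was compared with late-embryogenesis (S3, n = 2 libraries), and the labels name no treatment or introduced allele at either stage. Each library came from DNA of seeds pooled by stage as an independent biological replicate, so each library mixes the tissues of the seed in proportions that were not measured. According to the paper, chickpea endosperm is fully resorbed by the time S5 is reached, so the mix is not the same at both stages. A change of level within cells and a change in the proportions of these tissues cannot be told apart in such samples.

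In plants, CG methylation is copied onto the new strand after replication by the methyltransferase MET1, which acts on hemimethylated CG sites. CHG methylation is maintained by chromomethylases, chiefly CMT3, which are recruited to nucleosomes carrying methylated histone H3. In Arabidopsis, CMT3 is known to act less efficiently on CCG than on CAG and CTG, and CCG methylation there also depends on methylation of the inner CG. The outer C and the inner C of a CCG site are thus neighbours that are served by different maintenance enzymes.

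The listing sets what these values can show. Bisulphite leaves methylated cytosines as C, so the share of reads with C at a position, in percent, gives its methylation level. A listed cytosine had at least 5 reads and at least 3 methylated reads in each library, so the sites hold no outer C without methylation at either stage, and the largest losses and gains are missing. Median coverage of all listed cytosines was 14, 12 and 13 reads in S5 libraries and 14 and 14 reads in S3 libraries, and over the outer C of CCG sites it was 15, 11 and 15 reads in S5 and 16 and 16 reads in S3. S5 replicate 2 was thus the shallowest library. In all, 353708 candidate sites had the inner C and its partner listed in all 5 libraries and the outer C in 1 library or more, and 74.8% of these had the outer C listed in all 5.

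Just inside and just outside this limit, the candidates differed in outer level. The outer C averaged 66.8% at the sites listed in 5 libraries, 53.3% at the 48359 sites listed in 4, 44.1% at the 19348 sites listed in 3, and 30.01% at the 10064 sites listed in 1, always over the libraries that listed it. The inner C averaged 94.2%, 93.9%, 93.0% and 92.0% at the same sites. Candidates were set by listing of the inner C and its partner in all 5 libraries, and listing needs methylated reads. A nearly flat inner level beside an outer level that fell with fewer listings therefore follows largely from how the sets were made. Of the sites listed in 4 libraries, 44.4% were missing from S5 replicate 2, the shallowest library. The outer C was listed at 91.1%, 86.2% and 90.2% of candidates in S5 libraries and at 93.2% and 93.8% in S3 libraries. The stages did not overlap, with a difference of -4.31 percentage points (exact permutation test, two-sided, p = 0.2). Among the 9900 candidates with at least 20 reads at the inner pair in every library, the listing was 98.3% ± 0.473 at S5 (SD, n = 3) and 99.01% ± 0.0929 at S3 (SD, n = 2). The part of depth in the difference over all candidates was not tested. Of the 353708 candidates, 2389 had the outer C listed in both S3 libraries and no S5 library, and 989 in all S5 libraries and no S3 library. These conditions are unlike, since the first needs 2 listings and the second 3, among them S5 replicate 2. The counts are therefore no measure of loss against gain, and the part of depth in them was not tested.

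The outer C of CCG sites was methylated less than its inner neighbour in every library. The mean outer level was 65.2%, 64.6% and 66.5% in S5 libraries, against 69.2% and 68.6% in S3 libraries. The inner level was 94.3%, 94.0% and 94.6% in S5, against 94.1% and 93.8% in S3. The opposite partner of the inner C averaged 94.7% ± 0.298 at S5 (SD, n = 3) and 94.4% ± 0.166 at S3 (SD, n = 2), so both strands of the CG pair were close to fully methylated. The outer C stood below the inner C, with a mean difference of -28.9 percentage points at S5 and -25.1 at S3. It was below the inner C in all 5 libraries at 187165 sites (70.7%) and above it in all 5 at 896 sites (0.338%).

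The outer C of CCG sites was also less methylated than other CHG cytosines. A set of 2407454 other CHG cytosines, not followed by a listed C and with their opposite CHG partner, was likewise listed in all 5 libraries. It averaged 89.0% ± 0.777 at S5 and 91.4% ± 0.206 at S3, which put the outer C 23.6 and 22.6 percentage points lower. The gap was as large between neighbours. At the 221010 CCG sites with other CHG cytosines within 100 bases, the outer level was 66.1% at S5 and 69.6% at S3, and the other CHG cytosines around the same sites averaged 89.1% and 91.4%. The outer C was the lower of the 2 at 88.4% of these sites at S5 and 89.2% at S3. Outer C, inner C and other CHG were all chosen by listing, so these gaps are descriptions.

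**Figure D1:**
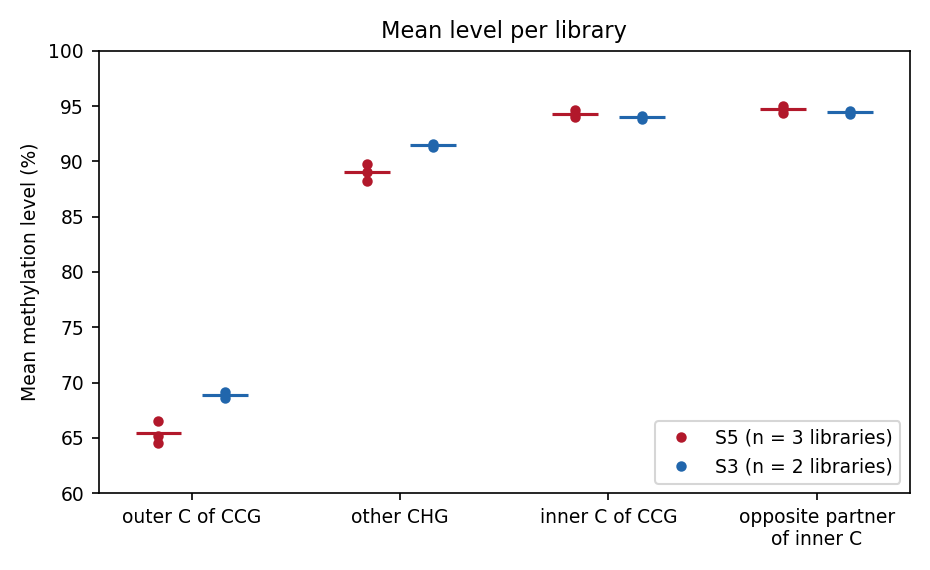
Mean methylation level in percent of the outer C of CCG sites, other CHG cytosines, the inner C and its opposite partner; each point is 1 library and each bar the mean of a stage, with S5 (3 libraries) left of S3 (2 libraries), and the axis starts at 60%. The outer level lay between 64.6% and 66.5% at S5, below both S3 libraries at 68.6% and 69.2%, whereas the inner levels of the stages overlapped between 93.8% and 94.6%.

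The main comparison between stages asked whether the outer C changed from late-embryogenesis to mid-maturation, and whether it changed with its inner neighbour. The outer level averaged 65.4% ± 1.02 at S5 (SD, n = 3) and 68.9% ± 0.389 at S3 (SD, n = 2), a difference of -3.45 percentage points with no overlap between stages (exact permutation test, two-sided, p = 0.1). The smallest p that 10 splits of 5 libraries allow is 0.1, so no comparison of this kind could pass a threshold of 0.05. The inner level averaged 94.3% ± 0.316 at S5 and 94.0% ± 0.183 at S3, a difference of 0.335 percentage points within the spread between libraries (exact permutation p = 0.3). The difference between outer and inner C was -28.9 ± 0.704 percentage points at S5 and -25.1 ± 0.206 at S3, so that the outer C fell further behind the inner C by 3.78 percentage points without overlap (exact permutation p = 0.1). The strands gave the same values, with outer differences of -3.44 percentage points on the forward and -3.45 on the reverse strand.

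Other CHG cytosines were lower at S5 as well, but by less. Their level differed by -2.41 percentage points between S5 and S3. The gap between the outer C and other CHG was -23.6 ± 0.334 percentage points at S5 and -22.6 ± 0.183 at S3, a change of -1.04 without overlap (exact permutation p = 0.1). The comparison with other CHG cytosines within 100 bases gave -23.1 ± 0.367 at S5 and -21.8 ± 0.150 at S3, a change of -1.23 (exact permutation p = 0.1). Asymmetric cytosines, which have no listed partner on the opposite strand, went the other way, with 52.8% ± 1.57 at S5 and 48.3% ± 0.654 at S3. The outer C of CCG sites thus moved in the direction of the CHG context.

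The outer levels were spread widely, whereas the inner levels were not. The median outer level was 66.7%, 66.7% and 67.6% in S5 libraries and 71.4% and 70.6% in S3 libraries. The 10th and 90th percentiles averaged 38.7% and 89.3% at S5 and 42.9% and 91.3% at S3. At least 90% methylation was found at the inner C of 79.9% of the sites at S5 and 79.5% at S3, but at the outer C of only 9.91% and 12.6%. The SD over sites was 19.2 percentage points at S5 and 18.4 at S3, of which read sampling alone would give 12.9 and 11.6. The spread left beyond read sampling was 14.2 and 14.3 percentage points for the outer C, against 5.83 and 5.63 for the inner C. Thus most CCG sites stood at an intermediate outer level, and the sites differed from one another by more than read sampling would give at both stages.

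The lower outer level at S5 came with more sites of low level. The outer level was under 50% at 20.1%, 21.1% and 18.1% of the sites in S5 libraries, against 14.6% and 15.1% in S3 libraries, a difference of 4.90 percentage points (exact permutation p = 0.1, no overlap). It was under 30% at 3.77% of the sites at S5 and 2.63% at S3, and under 70% at 55.5% and 47.6%. Hence the low and the middle part of the distribution both filled up at S5. The inner C was under 50% at only 0.453% and 0.427% of the sites.

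**Figure D2:**
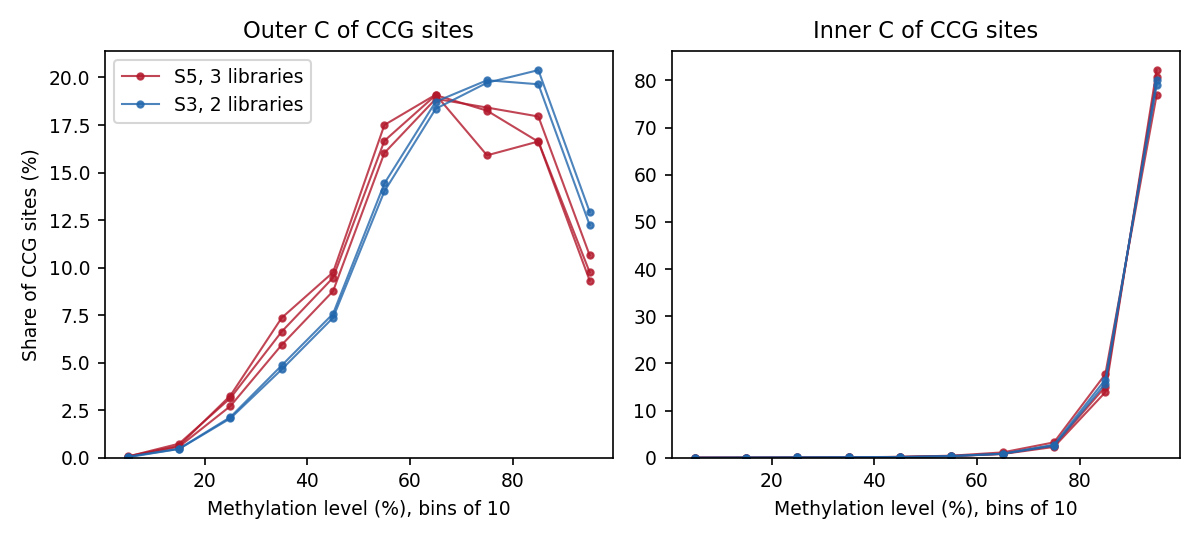
Share of CCG sites in percent by methylation level in bins of 10%, for the outer C (left) and the inner C (right), with 1 line per library, 3 for S5 and 2 for S3. The outer C formed a broad hump, with more sites under 50% at S5 (18.1% to 21.1%) than at S3 (14.6% and 15.1%), whereas the inner C stood mostly at 90% or more at both stages.

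The outer level of a site was stable between libraries of a stage as far as the reads allow. Over 264702 sites the outer levels of pairs of libraries correlated with r between 0.566 and 0.627, a description in which the points share neighbouring positions and depth. For pairs of libraries within a stage the chi-square per degree of freedom of the reads lay between 0.971 and 1.01, and between stages it lay between 1.06 and 1.14. The libraries of a stage therefore agreed about as closely as read sampling allows at single sites, in both stages alike. Their means still differed by 0.550 percentage points between the S3 libraries and by 0.605 to 1.98 between S5 libraries.

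At a single site the change between stages was small relative to the reads. The mean over libraries was lower at S5 at 62.7% of the sites and higher at 37.3%, with a median difference of -3.32 percentage points. For the inner C the corresponding shares were 44.8% and 49.1%, with a median of 0. Every S5 library lay below every S3 library at 41797 CCG outer cytosines (15.8%) and above at 15212 (5.75%). Over all 14128403 cytosines these shares were 7.43% and 11.8%, over other CHG they were 12.1% and 5.50%, and over the inner C they were 4.47% and 8.74%. The excess of sites lower in every S5 library was thus larger for the outer C than for these other classes, which was not tested.

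The outer level went with the inner CG level, and the correlation over sites was low. Across sites, r between outer and inner level lay between 0.152 and 0.173 in the 5 libraries, and r between the outer C and the opposite partner, which is read from the other strand, between 0.112 and 0.124. These are descriptions over 264702 sites, which share library, depth and neighbourhood. Read sampling lowers such r. For the inner C the SD over sites was 8.48 percentage points at S5 and 8.19 at S3, where sampling alone would give 6.16 and 5.94. How far the levels go together without sampling was not tested. At the 146586 sites whose inner C averaged 95% or more, the outer level was 67.3% at S5 and 70.8% at S3. At the 88276 sites with an inner level of 90% to 95% it was 64.2% at S5 and 67.7% at S3. At the 3189 sites with an inner level under 70% it was 53.7% at S5 and 56.4% at S3. The mean inner level of these sites was 53.0% at S5 and 54.2% at S3, so the outer level differed far less between the classes than the inner level did.

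The lowest class of the opposite partner had a lower outer level than the lowest class of the inner C. At the 2491 sites whose partner averaged under 70%, the outer level was 46.5% at S5 and 48.7% at S3, against 66.9% and 70.4% where the partner was at 95% or more. Sites with a lower inner level were also covered by more reads, with a median of 26.8 reads where the inner level was under 70% and of 14.2 where it was 95% or more. Among sites with a mean of 15 to 20 outer reads, a choice made after the data had been seen, the outer level was 58.3% at S5 and 61.1% at S3 where the inner C was under 70%, and 65.3% and 68.8% where it was 95% or more. By partner, the same depth gave 51.4% at S5 and 53.1% at S3 under 70%, and 64.9% and 68.6% at 95% or more. The distance between these classes was thus smaller at equal depth.

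Taking both strands of the CG pair together gave a sharper picture of the sites with low CG level. At the 926 sites where the inner C and its partner were both under 70%, the outer level averaged 31.1% at S5 and 33.8% at S3. At the 2263 sites where only the inner C was under 70%, it was 63.0% at S5 and 65.6% at S3, close to the 65.6% and 69.1% of the 259949 sites with both at 70% or more. At the 1564 sites where only the partner was under 70%, it was 55.7% at S5 and 57.5% at S3. The outer level was thus lowest where the CG pair was low on both strands, and differed little where the inner C alone was low. The sites low on both strands were also the deepest, with a median of 35.8 outer reads against 14.6 where both were at 70% or more, and the part of depth in the difference was not tested.

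At most of the 2263 sites with a low inner C alone, the usual order of outer and inner level was turned round. The outer C stood above the inner C at 60.9% of them, against 1.05% of the sites with both CG cytosines at 70% or more. Both groups were set by the inner level, so this contrast follows in large part from the choice. An extreme group of 266 sites was chosen by an inner level under 50% and an outer level of 80% or more. Here the outer level averaged 86.3% at S5 and 87.9% at S3, the inner level 36.6% and 36.5%, and the opposite partner 94.3% and 94.5%. These sites had a mean of 39.5 outer reads, against 14.8 to 21.6 in the libraries over all sites. Its inner level was nearly the same at both stages.

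**Figure D3:**
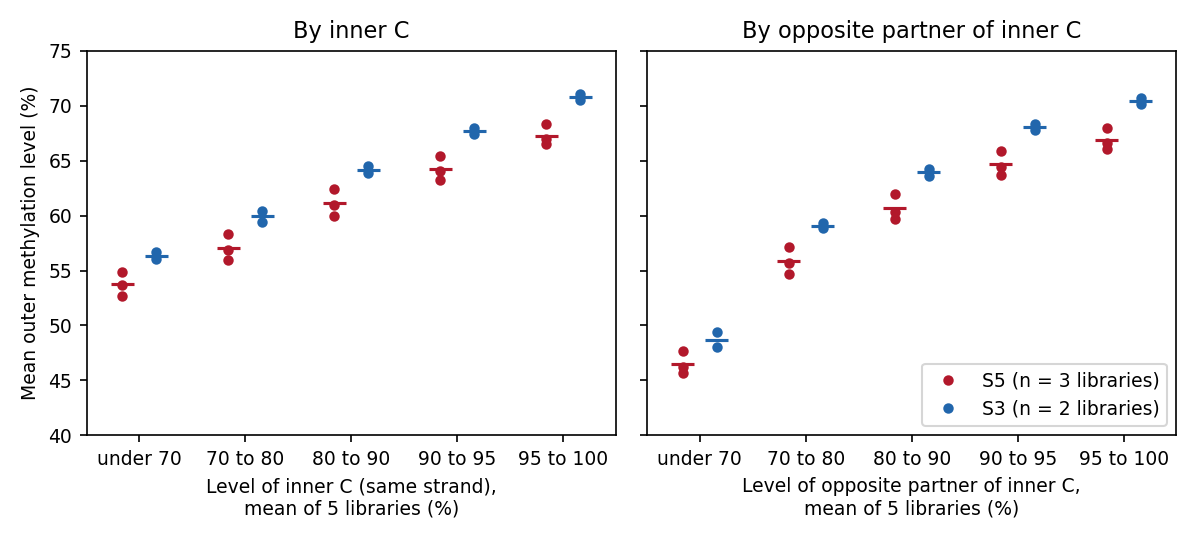
Mean outer methylation level in percent by class of the inner level (left) and of the level of its opposite partner (right), classes being set on the mean of 5 libraries; points are libraries, bars stage means, with S5 left of S3, and the axis runs over 40% to 75%. The outer level rose with the CG level, with 53.7% at S5 and 56.4% at S3 where the inner C was under 70% and 67.3% and 70.8% where it was 95% or more, and S5 lay below S3 in every class.

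The outer C was lower at S5 in each class of inner level. The outer difference between S5 and S3 was -2.61 percentage points at an inner level under 70%, -2.86 at 70% to 80%, -3.06 at 80% to 90%, -3.47 at 90% to 95% and -3.53 at 95% and more. In none of the 5 classes did the stages overlap. The exact permutation p was 0.2 in the 3 lower classes and 0.1 in the 2 upper ones, and 0.2 in all after Benjamini-Hochberg adjustment over the 5 classes. In finer classes of 5 percentage points the stages overlapped at inner levels of 20% to 25% (-1.51, exact permutation p = 0.3, 61 sites) and 35% to 40% (-1.99, exact permutation p = 0.3, 145 sites). The inner C of the 5 classes changed by between -1.18 and 0.551 percentage points. The outer C was thus lower at S5 also at sites whose CG pair stayed close to complete methylation.

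The outer levels also differed by the starting level. When sites were classed by 1 S3 library and measured against the other, so that the class and the change did not share reads, the outer C differed by -1.42 and -1.85 percentage points at sites under 30%, depending on which S3 library set the class. At sites of 50% to 70% the differences were -3.48 and -4.09, and at 90% or more they were -2.81 and -3.25. Every class was lower at S5, and the middle classes by the most. Sites needed at least 3 methylated reads in every S5 library, which limits falls from low starting levels more. The part of this limit in the differences between classes was not tested.

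Sites of extreme level over all libraries were few. An inner level of 90% or more with an outer level under 30%, over the mean of 5 libraries, was found at 2822 sites (1.07%). At these the outer level was 24.7% at S5 and 26.8% at S3, beside an inner level of 95.1% and 94.7%. An inner and an outer level of 90% or more was found at 10858 sites (4.10%), with an outer level of 92.7% at S5 and 93.1% at S3. An outer level under 50% in all 5 libraries was found at 11430 sites and one of 90% or more in all 5 at 1250 sites. A highly methylated CG pair was therefore found beside nearly every outer level that could be listed. The levels of these groups were what chose them.

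Outer levels differed with the listed cytosines next to the site. Where the C stands in CCGG, the opposite strand holds a CCG site of its own, and at 31162 sites (11.8%) this opposite outer C was also in the set. The outer level there was 74.4% ± 0.961 at S5 and 77.9% ± 0.314 at S3, against 64.2% ± 1.03 and 67.7% ± 0.399 at the other sites. Both outer cytosines had to be listed in 5 libraries there, which leaves out pairs with a low C. With a listing in at least 1 library for the opposite C, a choice made after the data had been seen, the 35001 sites had 73.3% at S5 and 76.9% at S3. At the 5088 sites preceded by a further listed C (CCCG), the outer level was 70.03% at S5 and 73.3% at S3. A neighbouring C that was not listed could not be seen, so the other sites hold CCGG and CCCG as well. The change between stages was -3.51 percentage points in CCGG and -3.32 in CCCG, close to that of the other sites.

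The strands of a CCGG shared part of their outer level. Over 15581 such pairs, r between the outer levels of the strands lay between 0.232 and 0.287 in single libraries and was 0.408 over the means of 5 libraries, with no test since pairs share position and depth. The SD of the difference between strands was 19.4 to 21.7 percentage points, where read sampling alone would give 15.1 to 18.9. Of the 1270 pairs with at least 1 outer C under 50%, both were under 50% in 189, which is 14.9%. Over all 15581 pairs, both were under 50% in 1.21%. Of single outer cytosines in these pairs, 4.68% were under 50%, a share of cytosines that is not measured like the 14.9% of pairs. The r between the inner C and its partner at the same pairs lay between 0.136 and 0.192, below that of the outer cytosines.

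CCG sites close to one another had more similar outer levels than distant ones, though the likeness was weak. For sites on the same strand 2 to 10 bases apart r between outer levels was 0.297 over 4992 pairs, and at over 1000 and up to 5000 bases it was 0.0830 over 424171 pairs. On opposite strands it was 0.414 at 2 to 10 bases, where most pairs are CCGG, and 0.150 at 11 to 50 bases. The inner levels of the same same-strand pairs correlated with r of 0.409 at 2 to 10 bases and 0.120 at over 1000. The outer level was thus less shared between neighbours on 1 strand than the inner level at each distance.

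**Figure D4:**
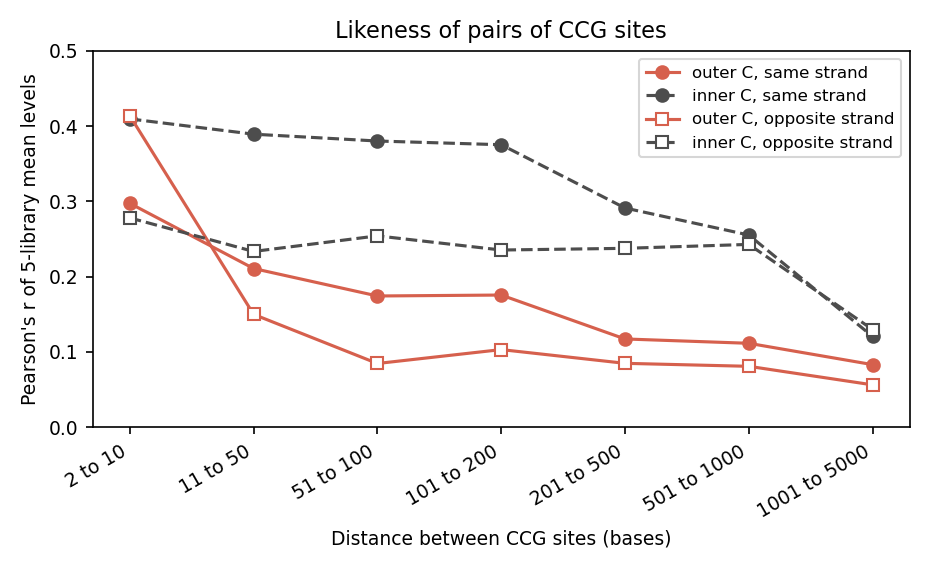
Pearson's r between the 5-library mean levels of pairs of CCG sites, by their distance in bases, for the outer C (solid) and the inner C (dashed), on the same strand (filled) and opposite strands (open). For the outer C on the same strand r was 0.297 at 2 to 10 bases and 0.0830 at over 1000 bases, and the points share sites and depth, so no test is given.

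The methylation around a site went with both its outer level and its change. At the 4535 sites whose nearby CHG cytosines averaged under 70%, the outer level was 50.6% ± 1.52 at S5 and 56.2% ± 0.926 at S3, a difference of -5.62 percentage points. At the 33818 sites where they averaged 95% or more it was 69.5% ± 0.678 at S5 and 72.2% ± 0.412 at S3, a difference of -2.72. The nearby CHG cytosines themselves changed by -9.55 and -0.229 percentage points in these classes. The class was set on the mean of all libraries, S5 included, so it is not independent of their change. Where nearby CHG was at 95% or more, the outer C was thus lower at S5 while its CHG neighbours were nearly level. Stages did not overlap in any class, and the exact permutation p was 0.1 in each.

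Sites with few asymmetric methylcytosines around them changed by more. At the 15294 sites with none listed in all 5 libraries within 100 bases, the outer level was 62.2% at S5 and 67.4% at S3, a difference of -5.14 percentage points. With 3 to 5 asymmetric cytosines the difference was -3.55, and with 11 or more it was -2.58, with 66.6% at S5 and 69.2% at S3. The outer levels of these classes lay within 2 percentage points of each other at S3 and differed by more than 4 at S5. The differences between classes were not tested.

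**Figure D5:**
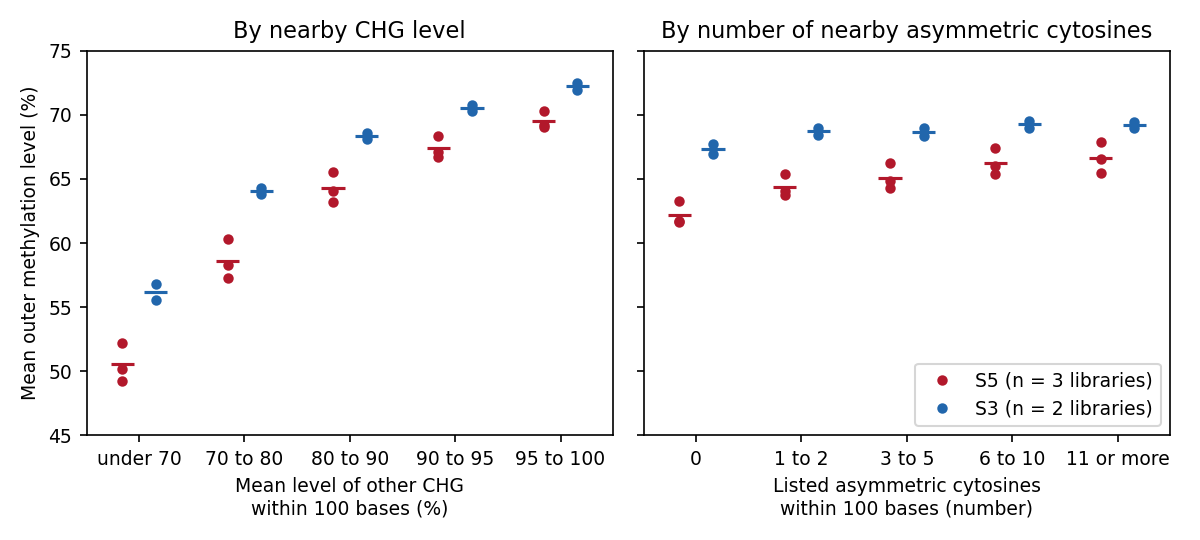
Mean outer methylation level in percent by the mean level of other CHG cytosines within 100 bases (left) and by the number of listed asymmetric cytosines within 100 bases (right); points are libraries, bars stage means, with S5 left of S3, and the axis runs over 45% to 75%. The stages lay furthest apart where nearby CHG was under 70% (50.6% at S5 and 56.2% at S3) and where no asymmetric cytosine was listed (62.2% and 67.4%).

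The change was found along the whole genome. On the 8 chromosomes of the kabuli assembly, the outer difference lay between -3.57 percentage points on Ca3, with 66.2% at S5 and 69.8% at S3 over 14309 sites, and -4.36 on Ca8, with 65.5% and 69.8% over 3097 sites. On the unplaced scaffolds as a whole, which held 139532 of the sites, it was -3.16, with 64.7% at S5 and 67.9% at S3. The stages did not overlap on any chromosome or on the scaffolds, with an exact permutation p of 0.1 for each. The inner C of the same chromosomes differed by 0.230 to 0.413 percentage points.

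Outer levels differed with depth, whereas the change differed little. The outer level was 71.6% at S5 and 74.8% at S3 at the 43809 sites with a mean of under 10 reads, and 57.5% and 60.7% at the 8994 sites with 50 or more, where the inner level averaged 95.3% and 87.8%. The part of the listing limit, which bears on shallow sites more, was not tested. The differences between stages lay between -3.13 and -3.57 percentage points over all depth classes. At the 9208 sites with at least 20 reads at all 3 cytosines in every library, the outer level was 56.4% at S5 and 59.5% at S3, and the mean of 5 libraries was under 50% at 32.99% of the sites.

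Single cytosines were then tested by a logistic regression on stage over their methylated and unmethylated reads, with Benjamini-Hochberg adjustment over all 14128403 shared cytosines. A site was called at q of 0.01 or less and a difference of at least 25 percentage points. This likelihood-ratio test treats reads as independent. Of the outer cytosines, 38 of 264702 were called lower at S5 (0.0144%), and 0 were called higher. The share called lower was 0.018% over all cytosines and 0.0233% over other CHG, so the outer C was not called lower more often than these. The share called higher was 0.00903% over all cytosines and 0.000249% over other CHG. At an unadjusted p under 0.05 in this test, 18017 outer cytosines (6.81%) were lower and 3848 (1.45%) higher, against 7.35% and 2.02% of other CHG and 3.92% and 5.12% of all cytosines. The quasi-binomial test moderated by limma called 0 higher, whereas 3 were called higher without S3 replicate 2 and 2 without S5 replicate 3. Without S3 replicate 1, 8 sites were called lower.

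The 38 sites were called on the outer C, and nearby CHG and asymmetric cytosines were not examined at them. At these sites the outer C changed by more on average than the CG pair beside it, which follows in large part from the choice. Its mean level was 40.2%, 36.8% and 41.4% in S5 libraries, against 83.0% and 80.5% in S3 libraries. Every S5 library lay below every S3 library at all 38, but the call used the same reads, so this separation is not independent of it. The inner C averaged 91.4% at S5 and 94.2% at S3 at the same sites and was called lower at 2 of them, and the opposite partner at 1. Over all sites the inner C was called lower at 11 (0.00416%) and higher at 3 (0.00113%).

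Of the 38 sites, 11 had at least 20 reads at the outer C in every library, and the 3 with the smallest p among these are described. At Ca3 position 4688624 on the forward strand, the outer level was 27.2%, 28.7% and 22.7% in S5 libraries, against 57.4% and 65.9% in S3 libraries, with 75 to 126 reads (likelihood-ratio test, q = 1.3e-11). The inner C fell with it, with 38.5%, 45.4% and 37.7% in S5 against 89.5% and 89.4% in S3, and so did the opposite partner, with a mean of 46.3% at S5 and 95.6% at S3. All 3 cytosines of this motif were thus lower at S5.

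At the other 2 sites the outer C was called and the inner C was not, with an inner q of 0.996 and 0.988 in the likelihood-ratio test. At Ca4 position 19783382 on the forward strand, the outer level was 24.4%, 33.3% and 19.4% in S5 libraries, against 92.0% and 68.6% in S3 libraries (likelihood-ratio test, q = 1.24e-07), while the inner C averaged 92.0% at S5 and 94.1% at S3. At scaffold695 position 105 on the forward strand, the outer level was 54.2%, 39.5% and 42.9% in S5 libraries, against 78.8% and 87.2% in S3 libraries (likelihood-ratio test, q = 5.03e-05), and the inner C averaged 98.4% and 97.9%. Only sites without overlap between stages could be named, so the lack of overlap at both outer cytosines follows from the choice. Which genes lie at these positions was not analysed here.

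The same test was run on reads summed over outer cytosines in windows of 100 bp moved by 50 bp with at least 3 CCG sites. Of 20331 such windows, which held 48641 sites, 33 were called lower at S5 (0.162%) and 0 higher. Windows of other CHG cytosines and of all cytosines were built in the same way from their own positions and adjusted separately. Their median reads over 5 libraries were 380 and 557, against 263 for windows of outer cytosines, so the sets are not matched. Windows of other CHG cytosines, with a median of 4 cytosines against 3, were called lower in 0.214% and higher in 0.00155%. Windows of all cytosines, with a median of 7, were called lower in 0.0897% and higher in 0.0654%. The share of outer windows called lower thus lay between these. At an unadjusted p under 0.05, 2848 windows of outer cytosines (14.0%) were lower and 237 (1.17%) higher, against 16.1% and 1.62% of windows of other CHG. The quasi-binomial test called 0 regions higher, and 1 was called higher without S3 replicate 2. The 33 windows merged into 26 regions, 12 of them on placed chromosomes, and the quasi-binomial test gave 6 regions. The median outer difference of the regions was -27.5 percentage points and that of their inner C was -0.866. The regions were called on the outer C, so this contrast follows in large part from the choice. The inner C was not lower by 10 points or more in any of the regions. The other CHG cytosines were lower at S5 in 15 of the 19 regions that held any, and the asymmetric cytosines in 15 of 18. For comparison, the outer level was lower at S5 in 71.5% of all 20331 windows. Shares for other CHG and asymmetric cytosines over all windows were not computed, so these counts are descriptions only.

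The 3 regions with the largest fall of the outer level over reads pooled by stage had pooled differences of -36.2, -35.4 and -34.1 percentage points. At scaffold531:74601-74700, with 3 sites, the outer level was 58.8%, 55.9% and 64.9% in S5 libraries, against 92.3% and 100% in S3 libraries, while the inner C averaged 95.1% at S5 and 93.4% at S3. At Ca4:21502601-21502750, with 3 sites, it was 38.3%, 39.7% and 38.5% in S5 libraries, against 65.9% and 89.1% in S3 libraries, beside an inner level of 91.7% and 96.4%. At the same place 4 other CHG cytosines averaged 64.7% at S5 and 86.6% at S3. At scaffold1757:61301-61450, with 3 sites, the outer level was 43.3%, 34.4% and 59.1% in S5 libraries, against 74.1% and 81.1% in S3 libraries, beside an inner level of 92.3% and 94.2%. Only regions with S5 and S3 libraries apart could be named, a condition that all 26 called regions met. The CG cytosines inside the 3 named regions stayed above 90% on average at both stages.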

How the data were processed

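Genomic DNA of Himchana 1 seeds was sonicated, ligated to adapters, bisulphite-converted and sequenced. The authors filtered reads with NGS QC Toolkit, mapped them to the kabuli chickpea genome version 1 with Bismark (0.14.3 per the submitters' processing notes), kept uniquely mapped reads and called methylcytosines with a binomial test from a depth of 5 reads. The deposited tables give, per called methylcytosine and library, the coverage as a count of reads and the methylation level as a percent of those reads. They give no context.

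Methylated reads were recomputed from percent and coverage, and all were whole within the rounding of the percent (0.005 percentage points). In 2 lines of S5 replicate 2 the percents of C and T did not sum to 100, and the percent of C was used. Positions on more than 1 line, 213 to 378 per library, were left out. Tables were joined by chromosome, position and strand, and context was read from listed partners on the opposite strand. Levels weigh each site alike. Groups and replicate numbers come from the labels. Stage means were compared by exact permutation over 10 splits, and reads at sites and in windows by logistic regression on stage (likelihood-ratio test) with limits taken from the study's methods. Benjamini-Hochberg adjustment replaced the sliding linear model. The quasi-binomial alternative used limma 3.58.1 in R 4.3.3. Errors from reads cover counting only, since duplicate reads are not independent molecules. Loci named are the 3 called sites with the smallest p and the 3 regions with the largest change in each direction. Only loci whose stages did not overlap were eligible, and sites also needed at least 20 outer reads in every library. The sites, classes and tests were chosen with earlier results of these data known. No genome of the build of the tables was used, so no sequences are shown.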

Additional observations from a re-analysis of the deposited data

How the results depend on the processing

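The 12 level and share results kept their direction in 121 of 122 alternatives. For each of the 12, pairing replicate numbers 1 and 2 gave the same value as leaving out S5 replicate 3, so the 122 hold repeats. The outer difference between S5 and S3 lay between -4.23 and -2.61 percentage points. The exception was the inner level, whose difference of 0.335 percentage points became -0.475 when reads were summed over sites, which gives deep sites more weight. Leaving out libraries in turn gave outer differences between -4.01 and -3.01. The share of candidates with a listed outer C moved by over 1.5 times, with a difference of -2.82 without S5 replicate 2 and -0.689 with at least 20 reads at the inner pair.

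Counts of single loci depended more on the settings. The 38 sites called lower became 53, of 125721 tested, with at least 10 reads in every library. Adjustment over CCG and other CHG only gave 28, and the quasi-binomial test gave 27. The count became 19 with a difference of 40 percentage points and 8 to 29 when 1 library was left out. It was 8 without S3 replicate 1, 18 without S3 replicate 2 and 21 without either S5 replicate 1 or S5 replicate 2. The count of sites called higher was then 0 to 3, with 2 when S5 replicate 3 and 3 when S3 replicate 2 was the one. The 26 regions called lower became 2 with at least 10 reads in every library, 0 with a difference of 40 percentage points and 6 with the quasi-binomial test, and 16 to 28 when 1 library was left out, with 17 when S5 replicate 2 and 16 when S3 replicate 1 was the one. The count of regions called higher was 0 to 1, with 1 without S3 replicate 2. Apart from the smaller number of libraries or windows, the cause was not tested. With the replicate block, which paired replicate numbers 1 and 2 and left out S5 replicate 3, the sites called lower numbered 20 and the regions 26, and the numbers are not known to mark a shared origin. The depth of 11 to 16 reads at the median outer C limits calls at single sites, and cytosines with few methylated reads are missing from all values.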
